A study of Mus musculus with 12 samples.

Results

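Survivin deletion was compared within non-cancerous mouse liver. The comparison holds 6 of the 12 single-colour Agilent arrays of the series, chosen by sample title: 3 arrays of survivin-deleted liver (genotype Mxcre+) and 3 arrays of wild-type liver (Mxcre-). The remaining 6 arrays are hepatocellular carcinoma (HCC) of both genotypes. Every mouse, controls included, was a male of strain 129/SV/B6 that received the liver carcinogen N,Nitrosodiethylamine (DEN) at 50 mg/kg at 2 weeks of age and poly(IC) 8 months later. Tissue was taken 1 week after poly(IC), and the labels also give irradiation and bone marrow transplantation 2 months earlier for both genotypes. Poly(IC) is a synthetic double-stranded RNA that induces interferon, which switches on the Mx promoter and with it the Cre recombinase of the Mxcre+ mice. Mx-Cre is known to act in hepatocytes and in other cell types, blood-forming cells among them, so the deletion is not specific to one liver cell type. The labels do not give the genotype or sex of the marrow donors, the Birc5 alleles of either genotype or the exons removed. They also do not say that the numbered arrays came from separate animals, so the p-values measure only the spread between these samples.

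Survivin, the product of Birc5, belongs to the inhibitor of apoptosis family and is a subunit of the chromosomal passenger complex. With the kinase Aurora B, the scaffold Incenp and borealin it directs chromosome attachment to the spindle and the final step of cell division. Birc5 and many other genes of mitosis are transcribed mainly in late cell cycle phases. Hepatocytes of an adult liver rarely divide, while marrow-derived and repairing cells in the same tissue can.

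All values are log2 signals relative to the 75th percentile of the array, and every difference is survivin-deleted minus wild-type liver on that scale. Replicate 1 of each group lay on slide 1, and replicates 2 and 3 lay on slide 2. The slide carried the first principal component of the 12 arrays (53.2% of the variance), and the 75th percentile of the spot signal was 1283 to 1958 on slide 1 and 3639 to 4243 on slide 2. Wild-type liver 1 stood apart on the second component (11.5% of the variance) and had 49.0% of its spots well above background, against 69.2% to 83.4% on the other 11 arrays. No spot was saturated. The deposited value table and the scanner files disagreed on 2 arrays of slide 1, those labelled survivin-deleted liver 1 and wild-type HCC 1. The table column of survivin-deleted liver 1 correlated at 0.964 with its own scanner file and at 1.00 with the file of the HCC array. The lists and nearly all named genes are therefore given, in this order, as filed (scanner labels, slide as a block), exchanged (the slide 1 HCC array in the place of survivin-deleted liver 1, slide as a block) and on slide 2 alone, where no array is in doubt and each group has 2 arrays. A gene is called lower, or higher, within both slides when the deleted array of slide 1 lay on that side of its wild-type array and both deleted arrays of slide 2 lay on that side of both wild-type arrays.

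Hepatocyte RNA was checked on a list of 12 hepatocyte markers. All 12 were well above background on all 6 arrays, and their summed linear signal, in units of the 75th percentile of the array, was 589 to 691 in wild-type and 434 to 527 in survivin-deleted liver. The gap depended on the scaling: as filed the median difference was -0.24 with 11 lower, and with quantile normalization -0.026 with 7 lower. On the slide 1 HCC array all 12 were also well above background, with a sum of 640. The label of that array is in doubt, so its sum does not show whether these markers can tell non-cancerous liver from HCC. Of the defining markers of other cell types, Ms4a1, Xcr1, Clec9a, Epcam and Plin1 were not well above background on wild-type liver 1, and the pancreatic gene Prss1 on none of the wild-type arrays and not on survivin-deleted liver 3. In these bulk samples fewer cells of a type and less RNA per cell cannot be told apart.

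Birc5 RNA was lower in survivin-deleted liver on slide 2, and on slide 1 the reading decided its size. It was measured by 3 probes on chromosome 11 (mm9). The probe printed here is shown because it gave the largest difference on slide 2; it lies in Birc5 at chr11:117711112-117711171, and its 60 bases are listed as the array design gives them. Exon annotation of that build was not used here, so whether a probe lies in the deleted stretch is not known.
Birc5 probe: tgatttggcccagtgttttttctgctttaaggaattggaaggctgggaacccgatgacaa

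On this probe the wild-type arrays read -0.23, -1.21 and -1.03. The survivin-deleted arrays read -0.33, -2.54 and -3.33, and the slide 1 HCC array read -2.03. Both deleted arrays of slide 2 lay below every wild-type array, whereas the array filed as survivin-deleted liver 1 differed from its wild-type neighbour by -0.099. The difference was -1.24 (SE 0.73) as filed, with a limma p of 0.120 and an exact two-sided permutation p of 0.3, a test that ignores the slide. Exchanged it was -1.81 (SE 0.34, limma p = 4.28e-04), with an exact permutation p of 0.1, the smallest that 3 against 3 arrays can give. On slide 2 alone it was -1.82 (SE 0.41).

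The second probe, 117714057 to 117714116, gave -0.98 as filed, -1.40 exchanged and -1.44 on slide 2. The third probe, 117716978 to 117717037, was the brightest on average and stands for the gene in all counts that follow. It gave -0.96 (SE 0.69), -1.50 (SE 0.44) and -1.22 (SE 0.42), with unadjusted limma p of 0.195, 0.0072 and 0.0268. Birc5 was thus about 1.94-fold lower as filed and 2.82-fold lower exchanged on that probe, and no reading reached an adjusted p under 0.05.

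**Figure D1:**
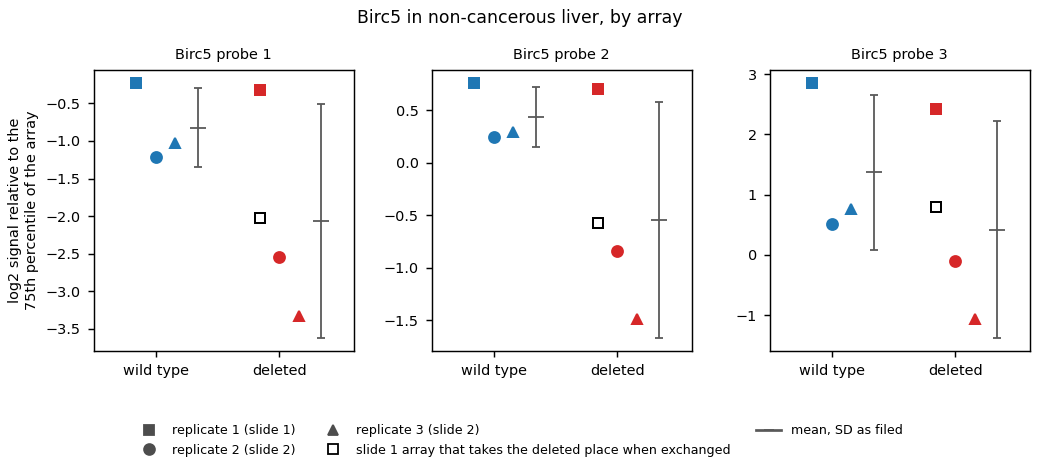
Log2 signal of the 3 Birc5 probes (numbered by position) on each non-cancerous liver array; squares are slide 1, circles and triangles slide 2, open squares the slide 1 array that takes the deleted place when exchanged, and bars the mean and SD of 3 arrays as filed. The filled deleted square sits beside the wild-type square in the first 2 panels, while the open square lies below every wild-type array there, at -2.03 on the first probe.

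No gene among the 26503 tested changed at an adjusted p under 0.05, as filed or exchanged, in limma's test with Benjamini-Hochberg adjustment. The smallest adjusted p was 0.150 as filed and 0.234 exchanged. At an unadjusted p under 0.05, 2219 genes (8.37%) were higher and 918 (3.46%) lower as filed, 1410 (5.32%) higher and 1038 (3.92%) lower exchanged, and 1469 (5.54%) higher and 1611 (6.08%) lower on slide 2. Slide 2 alone called 1 gene (0.00377%), XIST, lower at an adjusted p of 0.0236. With array weights, which trust arrays by how well they fit, limma called 35 genes, 21 higher and 14 lower, among them XIST, Serpina1a, Fcrl5, Nhlrc4, Lynx1, Spata20 and Lhx8. Leaving out wild-type liver 1 called 2 genes, Lhx8 and Zfp605, leaving out survivin-deleted liver 2 called 2 others, Apcdd1 among them, and leaving out any of the other 4 liver arrays called 0. Zfp605 and Apcdd1 lie outside the naming rule and were chosen after their values were seen. Within both slides, 3988 genes (15.0%) were higher and 3525 (13.3%) lower as filed, and 4332 (16.3%) were higher and 3606 (13.6%) lower exchanged. Without overlap between the groups, 6.35% of genes were higher and 3.25% lower as filed, and 6.15% higher and 3.12% lower exchanged. The balance of higher and lower genes turned with the filter: over the 18989 genes well above background on all 6 liver arrays, 834 were higher and 1050 lower at that threshold as filed, with a median of -0.05. The filter used otherwise admits a gene measured in 1 group alone. Of all genes, 39.0% were higher and 30.6% lower in all 3 readings, which is the background of every such count below. The gene groups below are described by these counts and by their medians, beside a median of 0.05 over all genes as filed, 0.06 exchanged and 0.02 on slide 2, and the values of single genes have not passed the adjusted threshold unless that is said.

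**Figure D2:**
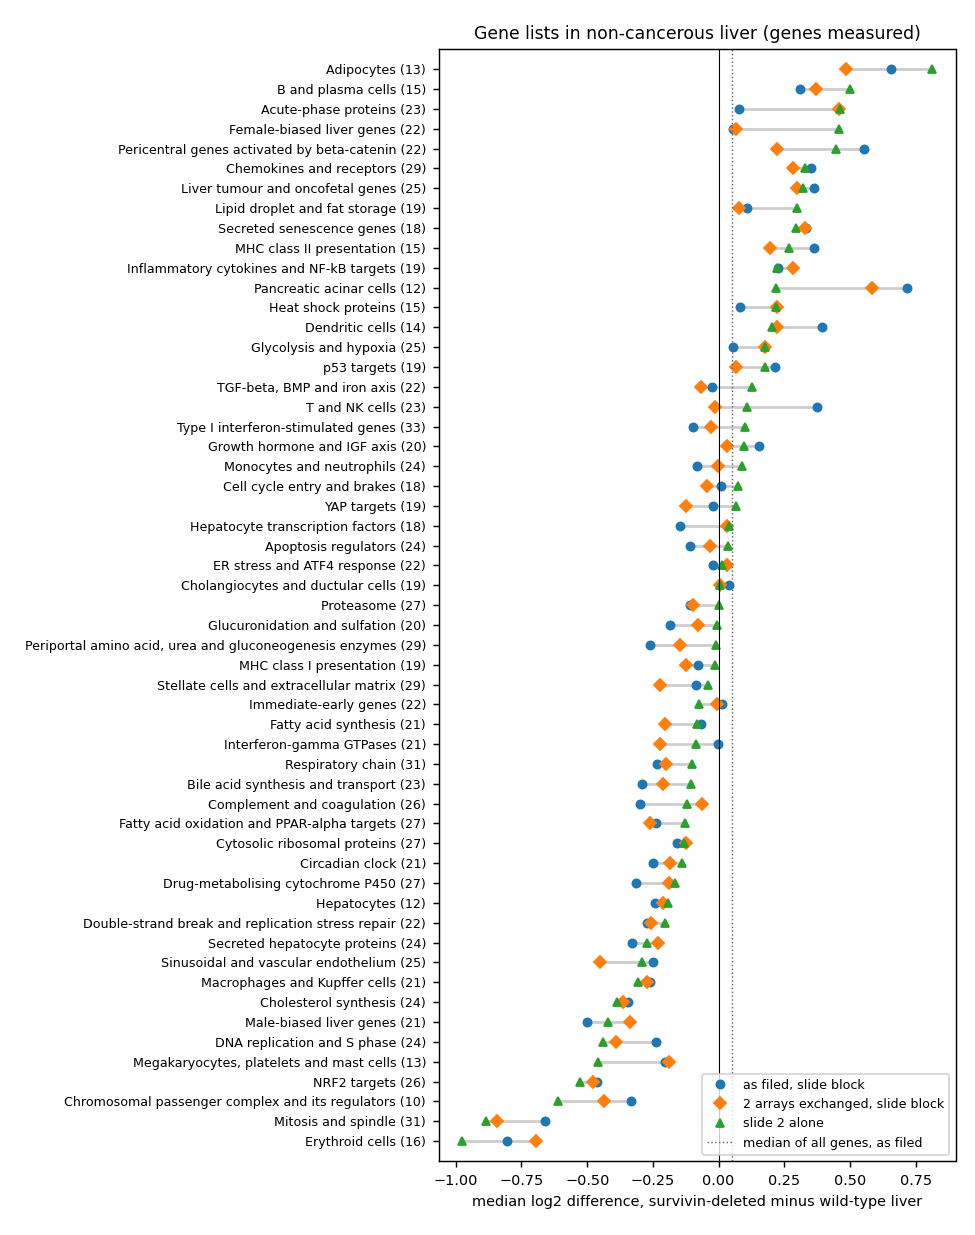
Median log2 difference, survivin-deleted minus wild-type liver, of the gene lists (number of genes measured in parentheses) as filed (circles), exchanged (diamonds) and on slide 2 alone (triangles). Erythroid and mitosis lists lie farthest to the left in every reading, and the circles and diamonds lie far apart for T and NK cells (0.37 and -0.01) and acute-phase proteins (0.08 and 0.46).

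Genes of mitosis and the spindle were lower in survivin-deleted liver in every reading. Of 31 measured, 29 were below 0 as filed, exchanged and on slide 2, as were 44.9%, 42.6% and 46.7% of all genes, and the list medians were -0.66, -0.84 and -0.88. The members were lower on each slide 2 array: the mean of the list was -1.39 and -1.26 in wild-type livers 2 and 3 and -2.11 and -2.21 in survivin-deleted livers 2 and 3. On slide 1 it was -0.42 in wild-type liver, -0.54 in the array filed as deleted and -1.13 in the HCC array. At an unadjusted p under 0.05 there were 4 lower members as filed, 23 exchanged and 24 on slide 2 (3.46%, 3.92% and 6.08% of all genes). Within both slides 18 of 31 were lower as filed and 28 exchanged (13.3% and 13.6% of all genes). The count as filed was 23 without survivin-deleted liver 1, and 0 without survivin-deleted liver 2 or 3, with medians of -1.08, -0.50 and -0.38. Without wild-type liver 1 it was 1, without wild-type liver 3 it was 2, and in a fit of the 6 liver arrays alone it was 17. Over all genes, the lower counts were 1081 without survivin-deleted liver 1, 542 without survivin-deleted liver 2 and 684 without survivin-deleted liver 3. They were 579 without wild-type liver 1, 710 without wild-type liver 3 and 1039 in the 6 liver arrays alone.

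Cenpa, the histone variant that marks centromeres, read 0.57, -0.39 and -0.47 in wild-type liver and 0.26, -1.72 and -1.60 in survivin-deleted liver. Both deleted arrays of slide 2 lay more than 1 unit below both wild-type arrays there, and the slide 1 pair was close. The difference was -0.92 (SE 0.34) as filed, -0.94 exchanged and -1.23 on slide 2. Cdc20, an activator of the anaphase-promoting complex, read 2.29, -0.05 and 0.03 against 1.32, -0.83 and -0.78. It was lower within both slides and differed by -0.85, -0.80 and -0.80 in the 3 readings. The kinetochore subunits Spc25 and Ndc80 differed by -0.75 and -0.76 as filed, -0.81 and -1.06 exchanged, and -0.84 and -1.14 on slide 2. The spindle protein Nusap1 differed by -0.77, -0.87 and -1.01 and the mitotic cyclin Ccnb1 by -0.95, -1.23 and -1.31.

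For Cdk1, the kinase that Ccnb1 activates, the direction depended on the probe. Its main probe read -2.94, -3.005 and -2.85 in wild-type and -2.50, -2.28 and -2.64 in survivin-deleted liver, so all 3 deleted arrays were above all 3 wild-type arrays. The difference was 0.46 (SE 0.18) as filed, 0.33 exchanged and 0.47 on slide 2, but the mean of all Cdk1 probes gave -0.44, so the probes disagree on the direction.

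The partners of survivin in the chromosomal passenger complex were uneven. Of 10 genes of the complex and its regulators, 8 were lower in all 3 readings (30.6% of all genes). Within both slides in both readings 6 were lower (10.7% of all genes), and the medians were -0.33, -0.44 and -0.61. The kinase Aurkb read -3.82, -3.02 and -2.80 in wild-type and -6.34, -3.98 and -3.92 in survivin-deleted liver. Its slide 1 gap of over 2 units was much wider than that of slide 2, and neither array of that pair was well above background for this probe. On slide 2, where all 4 arrays measured it, Aurkb was lower by -1.03 (SE 0.25). Borealin (Cdca8) differed by -0.68 as filed, -0.85 exchanged and -0.89 on slide 2, with every deleted array below its wild-type neighbours on the same slide. Shugoshin Sgol1 (now Sgo1), which protects centromeric cohesion, differed by -0.49, -0.51 and -0.57, and Cdca2 by -0.62, -0.71 and -0.65. The scaffold Incenp differed by -0.05 (SE 0.20), -0.11 (SE 0.20) and -0.03 (SE 0.20), within the spread between arrays.

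**Figure D3:**
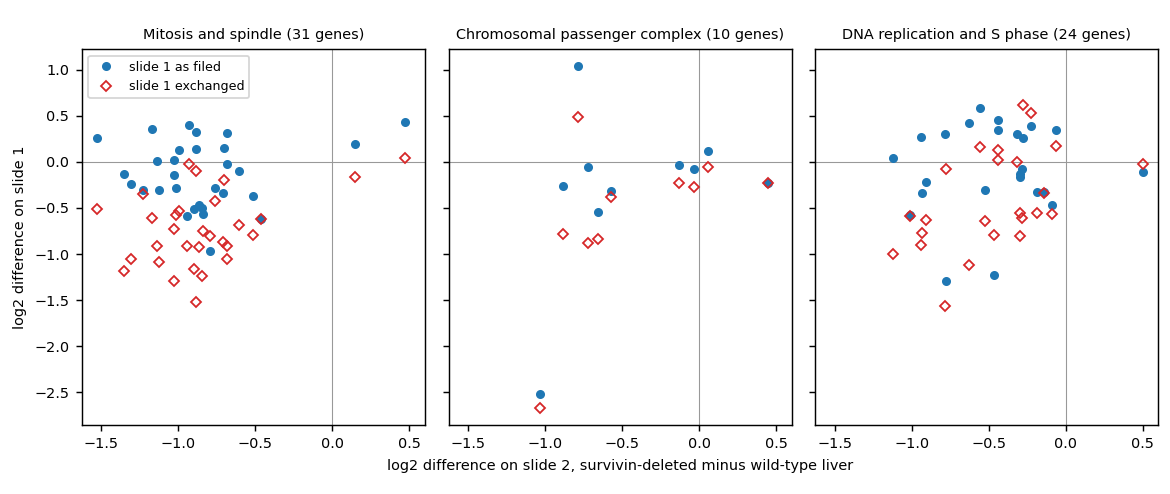
Log2 difference of each gene on slide 2 (horizontal) against slide 1 (vertical) for the mitosis (31 genes), chromosomal passenger (10) and replication (24) lists; filled points take the slide 1 array filed as deleted, open diamonds the exchanged one. Nearly all points lie left of 0, and on slide 1 the mitosis genes scatter around a median of -0.14 as filed and of -0.77 exchanged.

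Promoters of this group are shown because its members differed together. The late cell cycle repressor complex and its activating counterpart are known to act through the letters TTTGAA, usually with CCAAT boxes nearby. Both motifs were searched on both strands in the 250 bases before the start of each gene (RefSeq, GRCm38.p6), where 27 of the 31 mitosis genes had 29 windows. TTTGAA was in 37.9% of these windows and in 16.0% of the 32851 windows of all genes, CCAAT in 79.3% and 33.8%, and both in 34.5% and 5.55%. For the replication list (25 windows) the shares were 12%, 60.0% and 8.0%, and for the chromosomal passenger list (8 windows) 25.0%, 62.5% and 25.0%. A match is a description of the letters, not a site. The windows of 4 genes are printed 5′ to 3′ with the motif letters of either strand in capitals: Cdc20 and Cdk1 from the naming rule, whose RNAs went opposite ways on their main probes, Ccnb2, a mitotic cyclin chosen after its values were seen, and Birc5. They lie at chr4:118437344-118437593 (minus strand), chr10:69352913-69353162 (minus), chr9:70421555-70421804 (minus) and chr11:117848987-117849236 (plus).
Cdc20: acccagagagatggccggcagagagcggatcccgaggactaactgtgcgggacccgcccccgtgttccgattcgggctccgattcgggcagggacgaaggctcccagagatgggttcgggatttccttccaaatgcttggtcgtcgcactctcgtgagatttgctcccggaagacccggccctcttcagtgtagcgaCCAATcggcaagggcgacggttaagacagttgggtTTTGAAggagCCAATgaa
Cdk1: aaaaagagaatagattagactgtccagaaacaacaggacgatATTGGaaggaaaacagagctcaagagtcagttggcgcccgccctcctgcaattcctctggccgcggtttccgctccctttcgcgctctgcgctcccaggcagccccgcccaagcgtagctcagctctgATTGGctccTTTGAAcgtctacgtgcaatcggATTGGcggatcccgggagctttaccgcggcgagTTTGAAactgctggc
Ccnb2: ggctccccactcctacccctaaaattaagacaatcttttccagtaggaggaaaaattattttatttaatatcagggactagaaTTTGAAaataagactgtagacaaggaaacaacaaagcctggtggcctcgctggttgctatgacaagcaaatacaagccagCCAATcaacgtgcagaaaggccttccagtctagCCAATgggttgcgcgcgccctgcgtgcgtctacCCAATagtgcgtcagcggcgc
Birc5: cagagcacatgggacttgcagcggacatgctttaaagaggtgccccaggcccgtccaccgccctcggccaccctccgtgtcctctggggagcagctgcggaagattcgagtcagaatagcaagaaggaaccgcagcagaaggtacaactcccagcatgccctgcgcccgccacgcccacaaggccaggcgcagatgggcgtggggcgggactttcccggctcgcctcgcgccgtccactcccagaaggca
Cdc20 and Ccnb2 each held TTTGAA 1 time, with 2 and 3 CCAAT boxes, and Cdk1 held TTTGAA 2 times and CCAAT 3 times. The main Cdk1 probe was higher and the mean of all Cdk1 probes lower. The Birc5 window held neither motif in these letters. Ccnb2 RNA differed by -0.95 as filed, -1.30 exchanged and -1.35 on slide 2.

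Replication and S phase genes were lower in smaller steps. Of 24 measured, 22 were lower as filed, 20 exchanged and 23 on slide 2, the medians were -0.24, -0.39 and -0.44, and 11 were lower within both slides in both readings (10.7% of all genes). Rrm2, a subunit of ribonucleotide reductase, read 1.20, 0.54 and 0.62 in wild-type and 0.61, -0.54 and -0.33 in survivin-deleted liver. Every deleted array lay below its wild-type neighbours on the same slide, and the slide 1 HCC array read 0.60. The difference was -0.87 (SE 0.23) as filed, -0.87 (SE 0.22) exchanged and -1.01 (SE 0.13) on slide 2. The primase subunit Prim1 differed by -0.68, -0.82 and -0.91, the thymidine salvage kinase Tk1 by -0.72, -0.58 and -0.47, and the clamp Pcna by -0.25, -0.38 and -0.30. Slbp, which binds the stem-loop of histone mRNAs, depended on slide 1: it read 1.29, 1.20 and 1.30 in wild-type and -0.0030, 0.43 and 0.51 in survivin-deleted liver, while the HCC array read 1.21. Its difference was -0.95 (SE 0.19) as filed, -0.54 (SE 0.33) exchanged and -0.78 (SE 0.15) on slide 2.

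Repair genes for double-strand breaks and stalled forks were lower in part. Of 22, 16 were lower as filed and 19 in the other readings, with medians of -0.27, -0.26 and -0.20. Within both slides in both readings 8 were lower (10.7% of all genes). Nbn, a subunit of the complex that binds broken ends, read 0.39, 0.51 and 0.40 in wild-type against -0.52, -0.14 and -0.23 in survivin-deleted liver, with -0.18 on the HCC array. The groups did not overlap in either reading (lower without overlap in both readings: 2.01% of all genes), and the difference was -0.73 (SE 0.16), -0.62 (SE 0.21) and -0.64 (SE 0.12). The end-joining protein Xrcc5, also called Ku80, gave -0.54, -0.51 and -0.52, nearly the same on both slides. The recombination genes Xrcc2 and Bard1 gave -0.56 and -0.63 as filed, -0.61 and -0.80 exchanged, and -0.56 and -0.85 on slide 2.

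Apoptosis regulators showed no common shift, with medians of -0.11, -0.03 and 0.04 over 24 genes, and 6 were higher and 11 lower in all 3 readings.

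Targets of p53 and the brakes of the cell cycle were mixed. Of 19 p53 targets, 9 were higher and 6 lower in all 3 readings, shares near those of all genes, and the medians were 0.22, 0.07 and 0.18. Cdkn1a, the kinase inhibitor p21, read 0.12, -0.03 and -0.66 in wild-type and 0.23, 0.94 and 0.12 in survivin-deleted liver. Its groups overlapped, and the difference of 0.62 (SE 0.55) as filed, 0.78 exchanged and 0.88 on slide 2 was within the spread between arrays. Phlda3, an inhibitor of Akt, differed by 0.75 as filed, 0.27 exchanged and 0.92 on slide 2, and the zinc finger gene Zmat3 by 0.55, 0.26 and 0.43. Without overlap in both readings, 1 of the 19 p53 targets was higher and 3 were lower (5.22% and 2.01% of all genes). The 18 genes of cell cycle entry and its brakes had medians of 0.01, -0.04 and 0.07.

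Timp1, an inhibitor of matrix metalloproteinases, was higher in all 3 readings. It read 0.36, -0.34 and -1.10 in wild-type and 2.24, 1.20 and 0.68 in survivin-deleted liver, and 2.41 on the slide 1 HCC array. All deleted arrays lay above all wild-type arrays in both readings (5.22% of all genes), by 1.73 (SE 0.28, limma adjusted p = 0.416) as filed, 1.79 (SE 0.30) exchanged and 1.66 (SE 0.39) on slide 2, or 3.33-fold, 3.46-fold and 3.17-fold. Timp1 and Igfbp6, a binding protein for insulin-like growth factor II, belong to a list of secreted senescence genes whose 18 members had medians of 0.33, 0.33 and 0.29. Igfbp6 read -0.81, -1.04 and -0.63 in wild-type and 1.44, 0.39 and 1.82 in survivin-deleted liver, again without overlap, and differed by 2.04 (SE 0.54), 1.84 (SE 0.59) and 1.94 (SE 0.60). Of the list, 9 genes were higher and 3 lower in all 3 readings, so the remaining 6 changed sign with the reading. The lowest difference of any member, -2.29, -2.755 and -3.665, lay farther from 0 than the highest, 2.04, 1.84 and 1.94.

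Inflammatory genes were mixed, and their list medians depended on the filter. Of 19 cytokines and NF-kB targets, 10 were higher in all 3 readings and 5 lower, with medians of 0.23, 0.28 and 0.22. Ltb, lymphotoxin beta, a lymphocyte cytokine that signals to NF-kB, read 1.34, -0.72 and -0.33 in wild-type and 2.46, 1.90 and 0.40 in survivin-deleted liver. It was higher within both slides, by 1.49 (SE 0.46) as filed, 1.62 (SE 0.45) exchanged and 1.67 (SE 0.54) on slide 2. The NF-kB subunits Nfkb2 and Relb differed by 0.75 and 0.53 as filed, 0.99 and 0.66 exchanged, and 0.97 and 0.46 on slide 2. Ier3, from the immediate early gene list, differed by 1.63 (SE 0.49), 1.82 (SE 0.53) and 1.54 (SE 0.67). Chemokines and their receptors had medians of 0.35, 0.28 and 0.33 over 29 genes, of which 14 were higher and 4 lower in all readings. Over members well above background on all 6 liver arrays the medians as filed were 0.083 for 22 chemokine genes and 0.058 for 13 cytokine genes. Cxcl5, which attracts neutrophils, read -3.61, -3.19 and -3.84 in wild-type and -0.95, 0.12 and -2.69 in survivin-deleted liver, and 1.87 on the HCC array. The groups did not overlap, but the deleted arrays spanned nearly 3 units, and the difference was 2.37 (SE 1.01), 3.31 (SE 0.99) and 2.23 (SE 1.17). The B cell chemokine Cxcl13 differed by 2.01 (SE 0.82), 2.24 and 2.67, with wild-type liver 2 at -3.43 far below the other 2 wild-type arrays at -0.05 and -0.36.

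**Figure D4:**
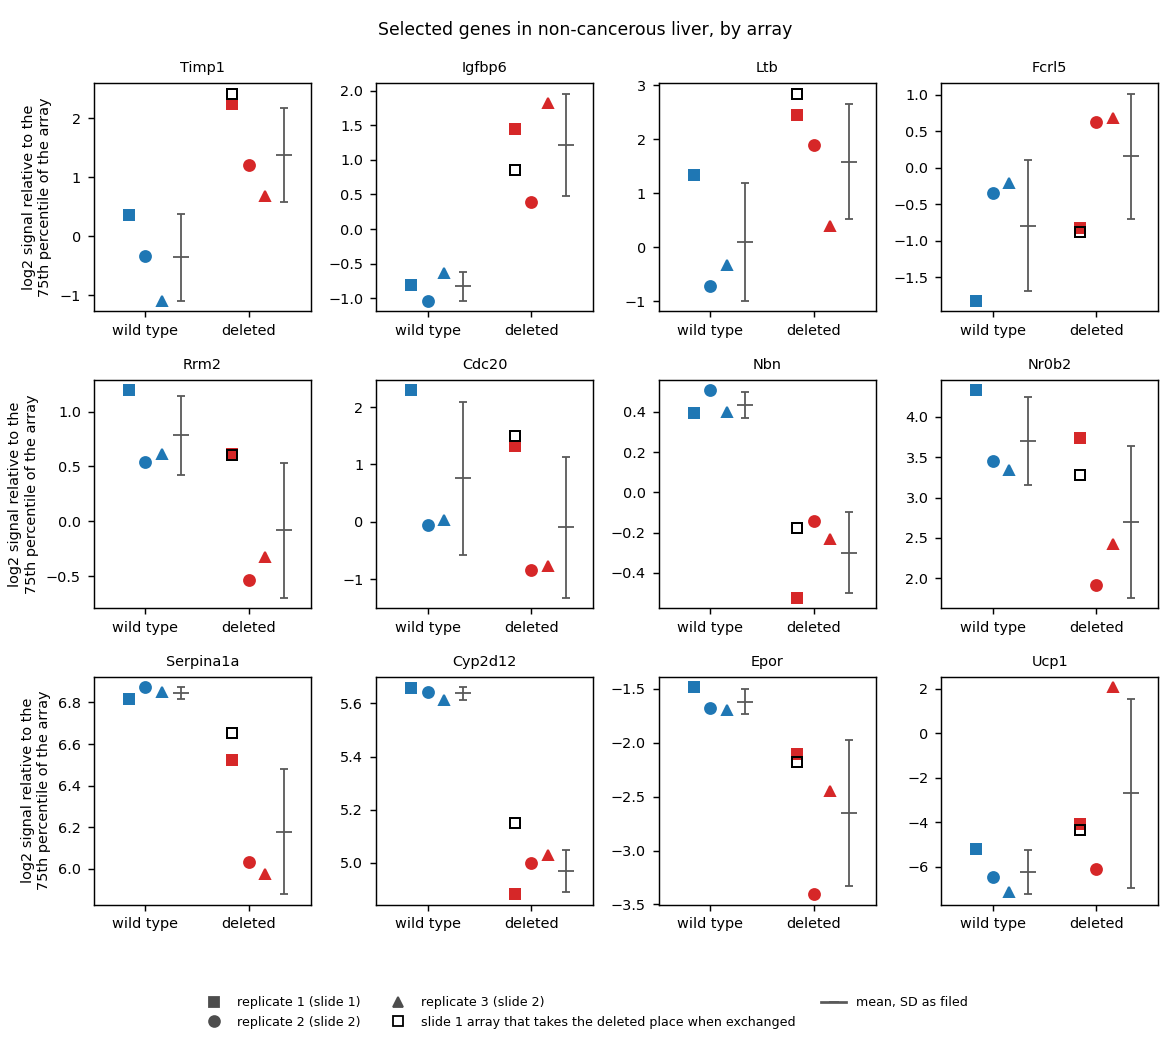
Log2 signal of 12 genes on each non-cancerous liver array, with symbols as in the Birc5 plot (squares slide 1, open square the exchanged array, bars mean and SD of 3 arrays as filed). Timp1, Igfbp6, Nbn, Serpina1a, Cyp2d12 and Epor have no overlap between the groups in either reading, while a single deleted array sets the Ucp1 difference.

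Acute-phase genes, which hepatocytes make under inflammation, were higher on slide 2 and depended on the reading on slide 1. Of 23 genes, 14 were higher as filed, 20 exchanged and 21 on slide 2, against 55.1%, 57.4% and 53.3% of all genes. The medians were 0.08 as filed, 0.46 exchanged and 0.46 on slide 2, and on slide 1 alone the median was -0.64 as filed and 0.23 exchanged. With quantile normalization 20 were higher as filed, with a median of 0.27. Higher within both slides were 1 gene as filed and 10 exchanged (15.0% and 16.3% of all genes). Saa2, a serum amyloid, read 3.91, 2.81 and 4.26 in wild-type and 4.12, 5.06 and 4.76 in survivin-deleted liver, with 5.06 on the HCC array. Its difference was 0.99 (SE 0.54), 1.30 (SE 0.38) and 1.38 (SE 0.53). Saa3 read 1.85, -0.06 and 0.14 against 0.89, 3.36 and 1.55, and the array filed as deleted on slide 1 was below its wild-type neighbour while the HCC array read 4.34. The difference was 1.29 (SE 1.11) as filed, 2.44 (SE 0.52) exchanged and 2.41 (SE 0.75) on slide 2. Socs3, a feedback inhibitor of cytokine signalling, gave 0.80, 1.06 and 1.52 and Orm2, an orosomucoid, 0.43, 0.67 and 0.99. From other lists, the leptin receptor Lepr gave 1.52, 2.07 and 2.63 and the neutrophil chemokine Cxcl1 0.61, 0.90 and 0.93.

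**Figure D5:**
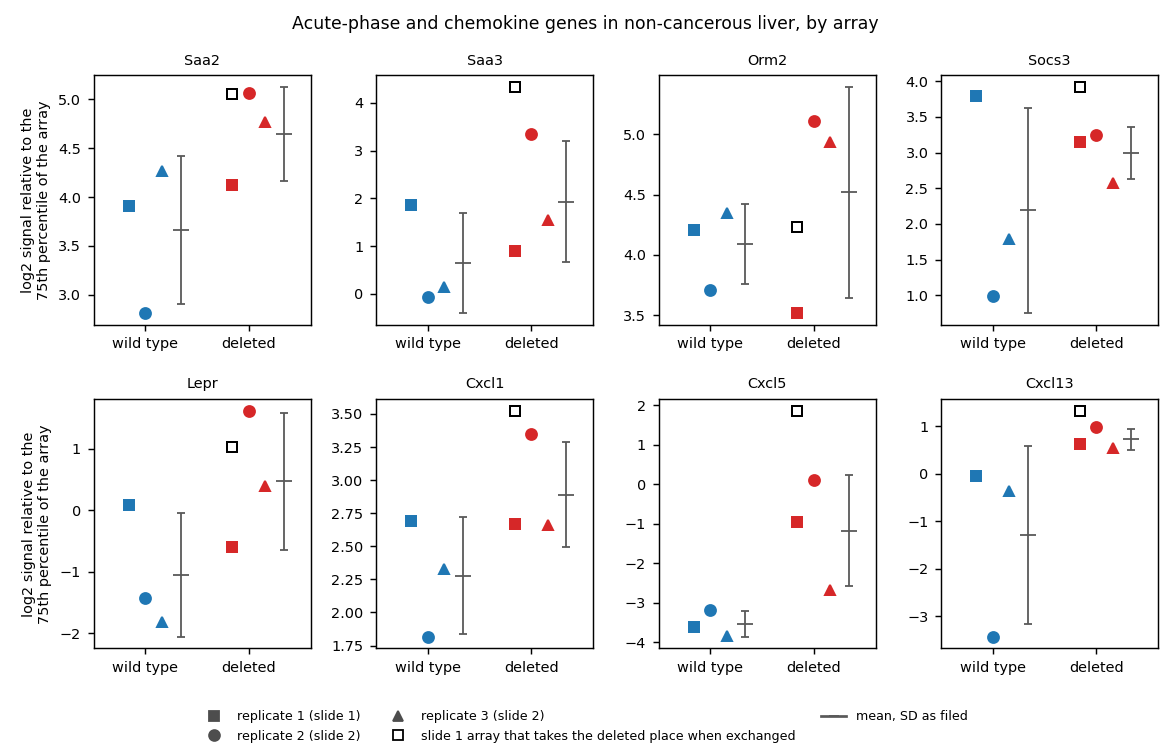
Log2 signal of 5 acute-phase or cytokine-response genes and 3 chemokines on each non-cancerous liver array, with symbols as in the Birc5 plot. For Saa3, Orm2, Socs3 and Lepr the slide 1 array filed as deleted lies below its wild-type neighbour and the open square above it, so the direction on slide 1 turns with the reading.

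Secreted hepatocyte proteins were lower by modest amounts that depended on the scaling. Of 24, 22 were lower as filed, 21 exchanged and 23 on slide 2, with medians of -0.33, -0.23 and -0.27, and 10 were lower within both slides in both readings (10.7% of all genes). With quantile normalization 16 of 24 were lower as filed and the median was -0.048. At an unadjusted p under 0.05, 0 members were then lower, against 8 as scaled here. Over all genes 921 were lower with quantile normalization and 918 as scaled here. Serpina1a, an alpha-1 antitrypsin, read 6.82, 6.87 and 6.85 in wild-type liver, nearly equal, and 6.53, 6.03 and 5.97 in survivin-deleted liver. All deleted arrays, and the HCC array at 6.65, lay below all wild-type arrays, and the difference was -0.67 (SE 0.17), -0.62 (SE 0.19) and -0.86 (SE 0.11). Serpina1a has near-identical paralogs whose RNA a probe may share. Apolipoprotein Apoe differed by -0.51, -0.40 and -0.52, albumin (Alb) by -0.54, -0.33 and -0.65, and the fetuin Ahsg by -0.49, -0.38 and -0.42. Apoa1 differed by -0.28 (SE 0.16), -0.24 and -0.38. The summed hepatocyte marker signal given above, on the same scaling, moved with these genes, and its part in them was not tested. The ribosomal protein genes, 25 of 27 lower as filed, had medians of -0.16, -0.12 and -0.13, but quantile normalization turned the median to 0.016, with 16 of 27 higher. As scaled here Rpl19 stood at -0.35, -0.32 and -0.27.

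Cholesterol synthesis genes were lower with few exceptions. All 24 were lower as filed, 23 exchanged and 23 on slide 2, and the medians were -0.35, -0.37 and -0.39. Within both slides in both readings 11 were lower (10.7% of all genes). Fdft1, squalene synthase, read 5.10, 3.87 and 3.77 in wild-type and 4.41, 2.91 and 3.35 in survivin-deleted liver. It was below its wild-type neighbours on each slide, by -0.69 (SE 0.28), -0.80 (SE 0.22) and -0.69 (SE 0.19). The sterol carrier Stard4 gave -1.06, -0.56 and -0.51, with its largest gap on slide 1 as filed.

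In bile acid metabolism, Nr0b2 was lower and Cyp7a1 higher on slide 2. Nr0b2 encodes SHP, the receptor that represses bile acid synthesis, and read 4.33, 3.45 and 3.34 in wild-type and 3.74, 1.92 and 2.43 in survivin-deleted liver, with 3.29 on the HCC array. It was lower within both slides, by -1.01 (SE 0.29) as filed, -1.16 (SE 0.23, limma adjusted p = 0.514) exchanged and -1.22 (SE 0.30) on slide 2. Cyp7a1, the rate-limiting enzyme of bile acid synthesis, read 3.03, 2.22 and 1.43 against 3.12, 3.26 and 3.19. The deleted arrays were nearly equal and the wild-type arrays spread widely, so the difference of 0.96 (SE 0.55) as filed and 0.91 (SE 0.60) exchanged was within the spread, and it was 1.40 (SE 0.40) on slide 2. The 23 genes of the list had medians of -0.29, -0.21 and -0.10, with 20 lower as filed and 16 with quantile normalization. From the fatty acid oxidation list, Fabp1, the liver fatty acid binding protein, differed by -0.63 (SE 0.22), -0.59 (SE 0.24) and -0.80 (SE 0.20).

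Drug-metabolising P450 genes were split. Of 27, 14 were lower and 6 higher in all 3 readings, with medians of -0.31, -0.19 and -0.16, and with quantile normalization 14 were lower and 13 higher as filed, with a median of -0.082. Cyp2d12, a P450 gene outside that list named for its small p, read 5.66, 5.64 and 5.61 in wild-type and 4.88, 5.001 and 5.03 in survivin-deleted liver, with little spread in either group. The HCC array read 5.15, also below every wild-type array, and the difference was -0.67 (SE 0.14), -0.58 (SE 0.14) and -0.61 (SE 0.12). Cyp2d9 and, also outside the list, Cyp2d11 of the same cluster gave -0.68 and -0.85 as filed, -0.53 and -0.70 exchanged, and -0.75 and -0.70 on slide 2, and since Cyp2d genes are similar in sequence their probes may share RNA. Cyp2a4 gave -0.77, -0.86 and -0.97, and Cyp2d22 -0.49, -0.52 and -0.59. Cyp3a11, a main drug-metabolising enzyme of mouse liver, gave -0.52 (SE 0.19), -0.74 (SE 0.26) and -0.38 (SE 0.15). Among NRF2 targets, 21 of 26 were lower in all 3 readings, and 23 as filed against 19 with quantile normalization; the glutathione transferase Gstm3 gave -1.26, -1.10 and -1.13 and the glutamate-cysteine ligase subunit Gclm -0.65, -0.48 and -0.55. Male-biased liver genes were lower in 17 of 21 in all 3 readings, with medians of -0.50, -0.34 and -0.42, while on slide 1 their median was -0.95 as filed and 0.014 exchanged.

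Pericentral genes that beta-catenin activates were higher on slide 2, and their direction on slide 1 turned with the reading. The medians over 22 genes were 0.55 as filed, 0.22 exchanged and 0.45 on slide 2, and on slide 1 alone 0.32 and -0.49. Tbx3, a transcription factor, read 1.93, 0.83 and 1.78 in wild-type and 2.75, 2.62 and 3.01 in survivin-deleted liver, with 1.47 on the HCC array. All filed deleted arrays were above all wild-type arrays, by 1.28 (SE 0.57), but the exchanged difference was 0.85 (SE 0.86), and that of slide 2 was 1.51 (SE 0.54). Axin2 gave 1.44 (SE 0.80), 1.01 and 1.23, and glutamine synthetase, Glul, 0.54 (SE 0.37), 0.22 and 0.74.

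Erythroid genes had the lowest list median in the filed and slide 2 readings. The medians over 16 genes were -0.80, -0.70 and -0.98, and 12 were lower in all 3 readings. On slide 1 alone the list median was -0.32 as filed and 0.18 exchanged. The summed signal was 93.4 to 133 in wild-type and 67.2 to 134 in survivin-deleted liver, so the sums overlapped. Epor, the erythropoietin receptor, read -1.48, -1.67 and -1.69 in wild-type and -2.10, -3.41 and -2.44 in survivin-deleted liver. It was lower without overlap in both readings, by -1.03 (SE 0.25), -1.06 (SE 0.24) and -1.24 (SE 0.30). Gata1, a transcription factor of red cell and platelet precursors, gave -1.54 (SE 0.38), -1.38 (SE 0.46) and -1.54 (SE 0.46). Car1, a red cell carbonic anhydrase, gave -2.25 (SE 0.78), -1.87 and -2.80, and Ahsp, which stabilises alpha-globin, -2.02 (SE 0.78), -1.70 and -2.86, both with their lowest value on survivin-deleted liver 2. The defining markers were within their spread: Hba-a1 gave -0.24 (SE 0.38), -0.40 and -0.51, Hbb-b1 (now Hbb-bt) -0.73 (SE 0.49), -0.21 and -0.39, and Alas2, the first enzyme of red cell heme synthesis, -0.88 (SE 0.61), -0.59 and -1.14.

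Most genes of megakaryocytes, platelets and mast cells were lower on slide 2. Of 13 measured, 10 were lower there and 3 higher. On slide 1 alone the list median was 0.07 as filed and 0.44 exchanged. Within both slides in both readings 0 were lower (10.7% of all genes). At an unadjusted p under 0.05, 6 were lower and 1 higher on slide 2 (6.08% and 5.54% of all genes). In the lower direction 1 passed that threshold as filed and 0 exchanged (3.46% and 3.92% of all genes). The platelet chemokine Ppbp read -0.30, 0.97 and 0.89 in wild-type and -0.91, -0.70 and -0.82 in survivin-deleted liver, while the HCC array read 0.42. It differed by -1.33 (SE 0.40) as filed, -0.89 (SE 0.55) exchanged and -1.70 (SE 0.50) on slide 2. Pf4 gave -0.80, -0.71 and -1.23, and Gp1ba, the platelet receptor for von Willebrand factor, -1.04, -0.89 and -1.86. Rgs18, a regulator of G-protein signalling found in platelets, was among the 10 lower genes of smallest p as filed, at -1.04 (SE 0.24), -0.77 (SE 0.32) and -1.15 (SE 0.28).

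Of 15 genes of B and plasma cells, 11 were higher and 4 lower on slide 2, with list medians of 0.31, 0.37 and 0.50. On slide 1 alone the list median was -0.43 as filed and 0.04 exchanged. Higher within both slides were 2 genes as filed and 4 exchanged (15.0% and 16.3% of all genes). With quantile normalization the median as filed was 0.13. Igj (now Jchain), which joins secreted immunoglobulin, read 0.68, -1.01 and -0.92 in wild-type and 0.17, 0.81 and 2.00 in survivin-deleted liver. The slide 1 pair went the opposite way to slide 2, and the difference was 1.41 (SE 0.77), 1.45 (SE 0.74) and 2.37 (SE 0.79). The chaperone 2010001M09Rik (now Mzb1) gave 1.59, 1.65 and 2.67. The summed signal of the list was 16.9 to 28.2 in wild-type and 15.2 to 33.8 in survivin-deleted liver. Fcrl5, a B cell receptor-like gene, was higher by 0.95 (SE 0.17, limma adjusted p = 0.416) as filed, 0.94 (SE 0.17) exchanged and 0.93 (SE 0.15) on slide 2. It read -1.83, -0.35 and -0.22 against -0.83, 0.62 and 0.68, the same gap on either slide. The class II gene H2-Ob gave 0.84, 0.72 and 0.42.

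Macrophage and endothelial genes were lower by small amounts. Of 21 macrophage and Kupffer cell genes, 13 were lower in all 3 readings and 0 higher, with medians of -0.26, -0.27 and -0.31 and a summed signal of 91.4 to 157 in wild-type and 73.9 to 102 in survivin-deleted liver. Lysozyme Lyz2 gave -0.62, -0.71 and -0.77, the engulfment receptor Mertk -0.43, -0.46 and -0.31, and the iron exporter Slc40a1 -0.50, -0.37 and -0.34. Of 25 endothelial genes 19 were lower in all 3 readings, with medians of -0.25, -0.45 and -0.29, and the hyaluronan receptor Lyve1 gave -0.65 (SE 0.26), -0.91 (SE 0.21) and -0.78 (SE 0.25). T and NK cell genes depended on the reading, with medians of 0.37 as filed (0.21 with quantile normalization), -0.01 exchanged and 0.11 on slide 2. On slide 1 alone the T and NK list median was 0.62 as filed and -0.38 exchanged. The cholangiocyte genes Krt7 and Sctr, the secretin receptor, were higher within both slides, at 0.69 and 1.33 as filed, 0.46 and 1.43 exchanged and 0.46 and 0.99 on slide 2, while the 19 genes of their list had medians of 0.04, 0.00 and 0.00. Of these 19, 8 were higher and 7 lower in all 3 readings. The lowest difference of any member was -1.73 as filed, -2.12 exchanged and -3.4 on slide 2.

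Fat cell genes were high on 1 array, survivin-deleted liver 3. Ucp1, the uncoupling protein of brown fat, read -5.20, -6.45 and -7.15 in wild-type and -4.10, -6.10 and 2.07 in survivin-deleted liver. The lipid droplet protein Plin1 read 0.80 on that array and -4.46 or lower on the other 5, and the adipokines Retn and Adipoq read 3.73 and 4.54 there. The summed signal of 13 adipocyte markers was 193 on survivin-deleted liver 3 and 55.2 to 130 on the other 5 arrays. Differences of Ucp1 (3.56, 3.47 and 4.79) and Plin1 (2.38, 2.13 and 3.11) therefore rest on that array, and Cidea, a lipid droplet gene of brown fat from another list, with 2.73 on it and -0.55 and -0.73 on the other deleted arrays, gave 2.03 (SE 0.70), 2.15 and 2.36. The part of fat tissue in other results was not tested.

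XIST, the RNA of the inactive X chromosome, was the gene with the smallest adjusted p on slide 2, although every mouse is labelled male. It read -1.77, -1.31 and -1.87 in wild-type and -2.32, -5.96 and -6.09 in survivin-deleted liver, and -4.12 on the HCC array. The array filed as deleted on slide 1 lay near the wild-type arrays and the last array was not well above background. The difference was -3.14 (SE 0.93), -3.74 (SE 0.45) and -4.43 (SE 0.21). Most of the other probes were well above background on wild-type livers 2 and 3 and not on survivin-deleted livers 2 and 3. They read lower there too: 1 of them gave -1.87 and -2.59 in wild-type and -8.57 and -7.64 in survivin-deleted livers 2 and 3. Such deleted values lie under the background limit, so no size is given for these probes. A probe measured on both, but dim in each group, gave -0.19 as filed. It read -5.6 and -3.1 in wild-type and -3.7 and -5.3 in survivin-deleted livers 2 and 3. Of 8 Y-linked genes 4 were measured. Eif2s3y read -1.70, 1.44 and 1.42 in wild-type and -1.32, 1.25 and 1.33 in survivin-deleted liver, so the slides stood apart and the groups overlapped, with a difference of 0.03 (SE 0.37) as filed, -0.031 exchanged and -0.14 on slide 2. Sry gave 0.29 (SE 0.20) and 0.24, and Uty -0.15 (SE 0.47) and -0.25, as filed and exchanged. Ddx3y gave 0.99 (SE 1.53), 1.01 and 1.44, with wild-type liver 3 at -1.08 against 2.10 on wild-type liver 2.

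Other genes of smallest p had functions outside these lists. Among the higher ones, Lynx1, a modulator of nicotinic receptors, differed by 1.47 (SE 0.30), 1.38 (SE 0.32) and 1.68 (SE 0.41). Nhlrc4 gave 1.06, 0.94 and 1.02. Spata20 did not rise clearly over background in wild-type liver, so only a bound can be given, at least 6.91-fold higher in survivin-deleted liver as filed and 4.92-fold on slide 2, and Lhx8, likewise not well above background there, at least 1.34-fold and 1.59-fold higher. Exchanged, their fitted differences were 2.36 (SE 0.92) and 1.39 (SE 0.74), no bounds, and Lhx8 was not well above background on the HCC array. Retnla, a secreted product of alternatively activated macrophages, was at least 4.55-fold higher as filed, with 0.23 on survivin-deleted liver 3 and -3.67 and -5.41 on the other deleted arrays. These bounds set the mean of the deleted arrays against the dimmest signal still well above background on each wild-type array. Among the lower ones, the kinase Pim3 gave -0.95, -0.79 and -0.78 and the pseudouridine synthase Trub1 -0.997, -0.91 and -0.98, both lower within both slides. Smallest in the exchanged reading were Tmem126b, a complex I assembly factor, at -0.61, -0.84 and -0.78, the tubulin chaperone Tbce at -0.60, -0.83 and -0.90, and the immune checkpoint ligand Cd276 at -1.30, -1.80 and -1.85.

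The deletion difference in liver was also tested against that in HCC by the interaction term of the same fit. No gene passed an adjusted p of 0.05 in limma as filed, exchanged or in any other setting that could test it, and 870 genes had an unadjusted p under 0.05 as filed and 940 exchanged. A gene past a threshold in liver and not in HCC is therefore not shown here to differ between the tissues.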

How the data were processed

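Total RNA of 12 samples was hybridised to single-colour (Cy3) Agilent arrays, per the labels' protocols. The authors deposited Agilent Feature Extraction scanner files (version 10.7 per the submitters' processing notes), whose processed signal is an intensity without background subtraction, per the file headers. The deposited value table holds log2 values, used as an alternative. Control spots and outlier flags were left out, spots of a probe were averaged, and log2 intensity minus the 75th percentile of the array was taken. Probes well above background on every array of at least 1 group were kept (39131), and the probe with the highest mean stood for each of 26503 gene names. Positions are those of the array design (mm9).

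Group means and slide were fitted over the 12 arrays with limma 3.58.1 in R 4.3.3 (7 residual degrees of freedom), with Benjamini-Hochberg adjustment at 0.05. Unadjusted p-values in the text come from the same fit, and slide 2 was fitted alone. Exact permutation tests used scipy 1.17.1. The fit was tested on simulated data. The number of arrays limits the precision. Same-numbered samples of the 2 liver groups deviated together (correlations 0.641, 0.437 and 0.505), but crossed samples within slide 2 did as well (0.474 and 0.455), and the labels do not say that a number marks a pair. The replicate number is therefore an alternative, beside other normalizations, filters, probe rules, variances, weights and left-out arrays.

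The members and the 56 gene lists were chosen with earlier results of these data known. Named genes are Birc5, XIST, Y-linked genes, the 10 smallest p per direction as filed and exchanged, and from each list its defining genes and up to 4 of smallest p in the direction of its median with 1 sign in all 3 readings; the text gives a selection. Ccnb2 lies outside this rule. Some genes are not reported here.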

Additional observations from a re-analysis of the deposited data

Results flagged for a closer look

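The macrophage list moved in opposite directions in the 2 tissues. Its mean was lower in survivin-deleted than in wild-type non-cancerous liver (-0.364 as filed, -0.361 exchanged) and higher in survivin-deleted than in wild-type HCC (0.302 and 0.306), a difference of -0.666 between the tissues as filed. The exchange cannot change this difference, since both arrays enter it with the same sign. On each slide every array of the liver comparison went one way and every array of the HCC comparison the other. The difference itself was not tested, and the cause was not tested.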

How the results depend on the processing

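The count of genes past an adjusted p of 0.05 in limma was 0 except on slide 2 alone (1), with array weights (35) and in the range of 0 to 2 when each liver array was left out. With the replicate block it was 0, and Birc5 stayed at -0.96. Birc5 was lower in every setting, and its unadjusted p fell under the threshold on slide 2 alone (-1.22), exchanged with or without slide block and in the 6 liver arrays alone (-1.50 each), with both arrays in doubt left out (-1.59), as filed in the 6 liver arrays alone (-0.96) and without survivin-deleted liver 1 (-1.76), with array weights (-1.35), in the value table (-1.51) and exchanged without the wild-type liver array of slide 1 (-1.04). Leaving out each liver array gave -1.76 to -0.38 (without survivin-deleted liver 3). The cause was not tested. The median of the mitosis list was below 0 in every setting, but 29 of the 56 list medians had another sign in at least 1 setting.

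Of 2399 pairs of a named gene and a setting, 22 changed sign, in 5 genes. Cdk1 gave -0.44 as the mean of all probes. Incenp gave 0.0012 with quantile normalization, 0.051 with normexp, 0.046 with array weights and -0.19 to 0.066 without single arrays, 0.010 and 0.023 among them. Hba-a1 gave -0.49 to 0.15 without single arrays. Eif2s3y gave -0.14 on slide 2, -0.031 in the exchanged fits, -0.34 exchanged without the slide 1 wild type, -0.046 with quantile normalization, -0.11 with array weights, -0.039 in the value table, and -0.28 to 0.16 without single arrays, -0.022 among them. Uty gave 0.025 on slide 2, 0.12 with array weights, -0.39 to 0.28 without single arrays and 0.17 exchanged without the slide 1 wild type. The cause was not tested.

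The exchanged fits of the 6 liver arrays alone and without the slide 1 wild type were chosen after seeing the data. Probes near background, most of all on wild-type liver 1, have the least certain values.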
